A study of Mus musculus with 12 samples.

Results

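Macrophage scavenger receptors are described here across Ifnar2-/- and wild-type (WT) mice given interferon beta (IFN-β) or saline. The members were 10 genes: Marco, Msr1, Cd36, Cd163, Cd5l, Lyve1, Stab1, Mrc1, Mertk and Axl. All of their non-control probes on the array were taken, 15 in number, out of 41174 probes and 27670 genes by name. Each of the 10 genes and 15 probes passed the filter on dim probes, which left 18276 genes and 27718 probes in the tests. Lyve1 is listed on the array under its older name Xlkd1 and was matched by accession. Total RNA of peritoneal exudate cells, flushed from the peritoneal cavity, was hybridised to 12 single-colour Agilent arrays. The groups were Ifnar2-/- mice given IFN-β, Ifnar2-/- mice given PBS, WT mice given IFN-β and WT mice given PBS, with 3 mice each and a different mouse on every array. Every animal was an 8-week-old female labelled 129S2/SvPas*BALB/c. The agents went into the peritoneum, IFN-β as a solution of 10000 IU/ml of unstated volume, and the cells were taken 3 h later. The labels give neither the tissue range of the Ifnar2 deletion nor whether the genotypes were littermates, and the exudate is a mixture of cell types.

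Scavenger receptors let macrophages bind and take up modified lipoproteins, microbial surfaces, hyaluronan, haemoglobin complexes and dying cells. Marco and Msr1 are trimeric class A receptors with a collagenous stalk, and Cd36 is a class B receptor for long-chain fatty acids and oxidised lipoproteins. Cd163 takes up haemoglobin bound to haptoglobin, and Cd5l is a secreted protein that, like Cd163, is built of scavenger receptor cysteine-rich domains, a kind of domain that Marco and Msr1 carry as well. Lyve1 binds hyaluronan, Stab1 is a multi-ligand endocytic receptor, and Mrc1 is the mannose receptor. Mertk and Axl are receptor kinases that recognise dying cells through bridging proteins such as Gas6. Ifnar2 is a subunit of the type I interferon receptor, the receptor for IFN-β.

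The 60-base probes behind the widest differences are shown because each level below is the brightness of such a probe, and because Lyve1 and Stab1 rest on a pair of separate sites. Positions are those in the scanner files on build mm7, and no annotation of that build was used to place them in exons or untranslated regions. The Marco probe lies at chr1:120342087-120342147 on the minus strand. The Lyve1 probes lie at chr7:106765983-106766042 and chr7:106767480-106767538, and the Stab1 probes at chr14:28568749-28568808 and chr14:28589152-28589295, all on the minus strand. The Axl probe lies at chr7:22531966-22532025 on the minus strand. Each is written 5′ to 3′ as the array's design gives it.
Marco A_51_P371750: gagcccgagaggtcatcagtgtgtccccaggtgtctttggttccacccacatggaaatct
Lyve1 A_52_P686785: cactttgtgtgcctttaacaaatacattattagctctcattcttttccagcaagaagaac
Lyve1 A_51_P155052: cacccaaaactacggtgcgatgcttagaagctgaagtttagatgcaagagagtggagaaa
Stab1 A_51_P232371: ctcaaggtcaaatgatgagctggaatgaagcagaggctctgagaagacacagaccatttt
Stab1 A_52_P380399: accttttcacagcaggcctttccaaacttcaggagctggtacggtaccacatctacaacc
Axl A_52_P311787: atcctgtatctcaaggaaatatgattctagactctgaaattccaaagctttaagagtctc

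Levels are the log2 of the deposited processed signal minus the log2 of the array's 75th percentile, so that 0 is the 75th percentile, and the brightest probe stands for a gene. Differences were tested with limma, and a gene is called changed where its p adjusted over all 18276 genes is under 0.05. Between 59.4% and 71.6% of spots were well above background per array. The probes of the targeted gene Ifnar2 went opposite ways: A_52_P190405 was at 2.79 ± 0.14 in Ifnar2-/- PBS mice and 4.64 ± 0.23 in WT PBS mice (SD, n = 3 each), and A_51_P338924 at 2.59 ± 0.10 in Ifnar2-/- PBS mice and 1.64 ± 0.07 in WT PBS mice. The labels do not place these probes relative to the deleted part. The arrays lay on 3 slides that hold unequal shares of the groups. Slide 1 held the 3 WT PBS arrays and 1 WT IFN-β array, slide 2 held 1 Ifnar2-/- IFN-β, 1 Ifnar2-/- PBS and 2 WT IFN-β arrays, and slide 3 held the other Ifnar2-/- arrays. On slide 3, 59.4% to 62.5% of spots were well above background, against 65.2% to 71.6% on slides 1 and 2. Saturated spots numbered 23 to 29 per array on slide 3 and 1 to 4 on slides 1 and 2. No slide held both PBS groups.

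In mice given PBS, some of the receptors differed between the genotypes, whose arrays lay on different slides. After PBS, 6 of the 10 members were higher in Ifnar2-/- mice, 0 were lower and 4 did not pass the test (Marco, Lyve1, Stab1, Cd163, Axl and Cd5l passed). Of all genes tested, 4.88% were called in this comparison, 2.85% as higher and 2.04% as lower, and of all probes 4.53%. The members' median log2 difference was 1.47, against 0.01 over all genes. The members were chosen with earlier results of these data known. Their share called, their median and the ranks by size below therefore follow in part from that choice and are descriptions. The values of the 6 genes did not overlap between the genotypes, as was true of 29.1% of all genes. In bulk cells such as these, fewer cells of a type and less RNA per cell cannot be told apart.

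Marco showed the widest difference of the 10. Its processed signal was 18825, 17864 and 21090 in the 3 Ifnar2-/- PBS mice, against 442, 379 and 531 in the 3 WT PBS mice. On the log2 scale its level was 4.62, 4.32 and 4.54 in Ifnar2-/- PBS mice and -0.76, -1.05 and -0.68 in WT PBS mice. All Ifnar2-/- mice were far above all WT mice, with little spread within either genotype. The log2 difference was 5.33 (SE 0.32, adjusted p = 1.24e-05), a fold of 40.1 with a 95% interval of 24.7 to 65.2, and it ranked 14th by size among the 18276 genes. Msr1, the other collagenous class A receptor, had overlapping groups, at 4.02, 3.98 and 4.23 in Ifnar2-/- PBS mice and 3.76, 4.15 and 3.79 in WT PBS mice. Its log2 difference was 0.18 (95% interval -0.16 to 0.51, adjusted p = 0.548), and its other probes gave 0.43 and 0.20, neither past the test. Cd36 was at 3.45, 3.37 and 3.81 in Ifnar2-/- PBS mice and 3.15, 3.65 and 3.73 in WT PBS mice, a log2 difference of 0.03 (95% interval -0.35 to 0.41, adjusted p = 0.942). Of these 3 receptors only Marco passed the test.

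Cd163 and Cd5l were both higher without Ifnar2. Cd163, the haemoglobin receptor, was at 2.39, 1.91 and 2.46 in Ifnar2-/- PBS mice and 0.31, -0.06 and -0.07 in WT PBS mice. Its log2 difference of 2.20 (SE 0.43, adjusted p = 0.017) was a fold of 4.59. Cd5l stood at 6.15, 6.33 and 6.53 in Ifnar2-/- PBS mice and 4.95, 5.81 and 5.31 in WT PBS mice, a log2 difference of 0.98 (SE 0.19, adjusted p = 0.0175). Leaving out single mice ended these calls and none of the other 4. That of Cd163 ended without Ifnar2-/- PBS mouse 3 or WT PBS mouse 2 or 3 (adjusted p 0.0676, 0.0576 and 0.0585), and that of Cd5l without Ifnar2-/- PBS mouse 2 or 3 or WT PBS mouse 1 or 3 (adjusted p 0.064, 0.0749, 0.0541 and 0.0586). The Cd5l call also ended with only the PBS groups in the limma fit (0.98, adjusted p = 0.075).

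Lyve1 and Stab1 rose on both of their probes. Lyve1, the hyaluronan receptor, had processed signals of 4609, 2601 and 3467 in Ifnar2-/- PBS mice and 122, 84.9 and 173 in WT PBS mice on probe A_52_P686785. Its levels were 2.59, 1.54 and 1.93 in Ifnar2-/- PBS mice and -2.62, -3.21 and -2.30 in WT PBS mice. The lowest Ifnar2-/- mouse was well above the highest WT mouse. The log2 difference was 4.73 (SE 0.76, adjusted p = 0.00519), a fold of 26.6 with a 95% interval of 8.33 to 85.1, ranked 23rd by size. The dimmer probe A_51_P155052, at -0.24 ± 0.45 in Ifnar2-/- PBS mice and -4.80 ± 0.44 in WT PBS mice (SD, n = 3 each), gave 4.56 (SE 0.71, adjusted p over all probes 0.00432). That probe was well above background on 10 of the 12 arrays, all but WT IFN-β mice 1 and 2, and the other 14 probes of the members on all 12.

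Stab1 was at 5.54, 5.24 and 5.59 in Ifnar2-/- PBS mice and 3.11, 2.93 and 2.79 in WT PBS mice on its brighter probe. The log2 difference was 2.51 (SE 0.31, adjusted p = 0.0011), a fold of 5.70, and the probe at its other site gave 2.14 (SE 0.23, adjusted p over all probes 0.000402). The groups were again fully apart on both probes. Mrc1, the mannose receptor, was at 1.72, 1.52 and 1.18 in Ifnar2-/- PBS mice and 1.22, 0.78 and 0.61 in WT PBS mice, with overlap and a log2 difference of 0.60 that did not pass (95% interval -0.04 to 1.24, adjusted p = 0.277).

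The receptor kinases for dying cells parted after PBS. Axl was at -1.03, -1.65 and -1.95 in Ifnar2-/- PBS mice and -2.92, -3.72 and -3.85 in WT PBS mice, a log2 difference of 1.95 (SE 0.32, adjusted p = 0.00604) and a fold of 3.87. Mertk was at 2.25, 2.11 and 2.59 in Ifnar2-/- PBS mice and 2.06, 2.55 and 1.61 in WT PBS mice, a log2 difference of 0.24 (95% interval -0.38 to 0.87, adjusted p = 0.674). Axl was therefore above its WT level in every Ifnar2-/- mouse, while the Mertk groups overlapped. Normexp background correction of the unprocessed signals gave smaller and still called differences, 1.29 for Axl (adjusted p = 0.00828) and 4.15 for Lyve1 (adjusted p = 0.00109).

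**Figure D1:**
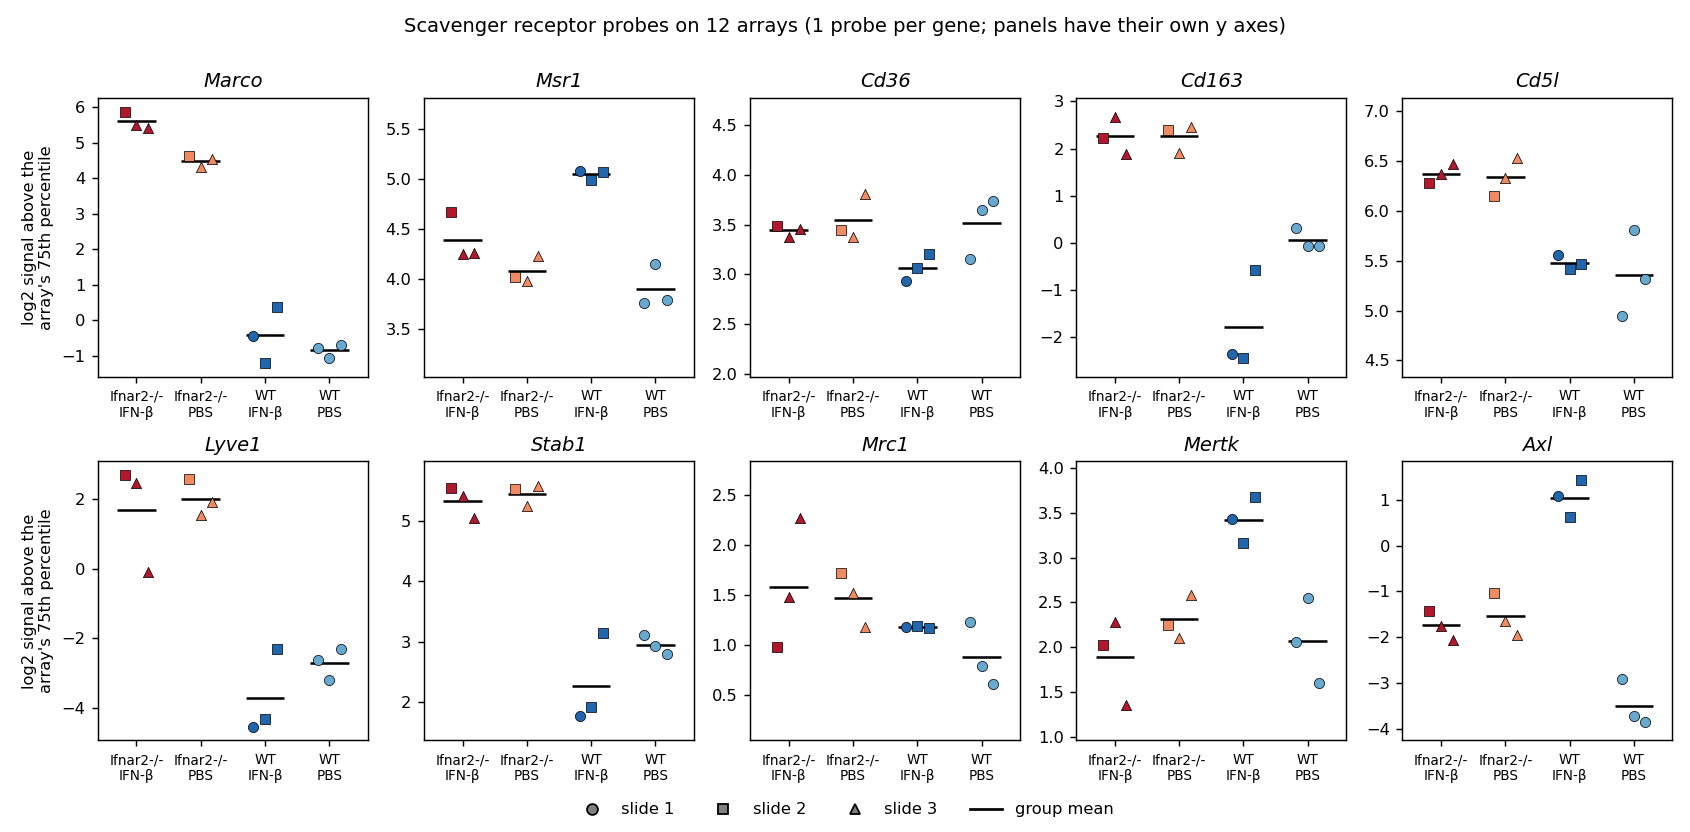
Level of the 10 members on each of the 12 arrays, as log2 processed signal above the array's 75th percentile (y axes differ between panels), by group on the x axis. Each point is 1 mouse, its shape gives the slide and the bar is the group mean. For Marco the 6 Ifnar2-/- mice lie between 4.32 and 5.87 and the 6 WT mice between -1.19 and 0.37, while Axl is highest in WT mice given IFN-β, at 0.62 to 1.44.

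Because no slide held both PBS groups, slide and genotype are tied in this comparison. With slide as a fixed block, which draws the difference through the IFN-β arrays, the Marco difference was 5.48 (adjusted p = 0.0227) and the other 5 calls ended: Lyve1 4.29 (adjusted p = 0.512), Stab1 1.89 (0.443), Axl 2.42 (0.227), Cd163 1.39 (above 0.99) and Cd5l 0.95 (0.779). On slides 1 and 2 only, Marco and Lyve1 kept their calls and those of Stab1 (adjusted p = 0.0805), Axl (0.0572), Cd163 (0.258) and Cd5l (0.455) ended. That block also cut the calls over all genes to 31, against 892 without it. The Ifnar2-/- PBS mouse on slide 2 alone stood above the WT PBS mean by 5.45 for Marco, 5.30 for Lyve1, 2.59 for Stab1, 2.33 for Cd163, 2.47 for Axl and 0.79 for Cd5l. Within slide 2, the Ifnar2-/- mouse given IFN-β stood above the 2 WT mice given IFN-β by 6.28 for Marco, 6.02 for Lyve1, 3.03 for Stab1, 3.74 for Cd163 and 0.84 for Cd5l. For Axl the same difference after IFN-β was -2.45. These within-slide values have 1 Ifnar2-/- mouse and carry no test.

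**Figure D2:**
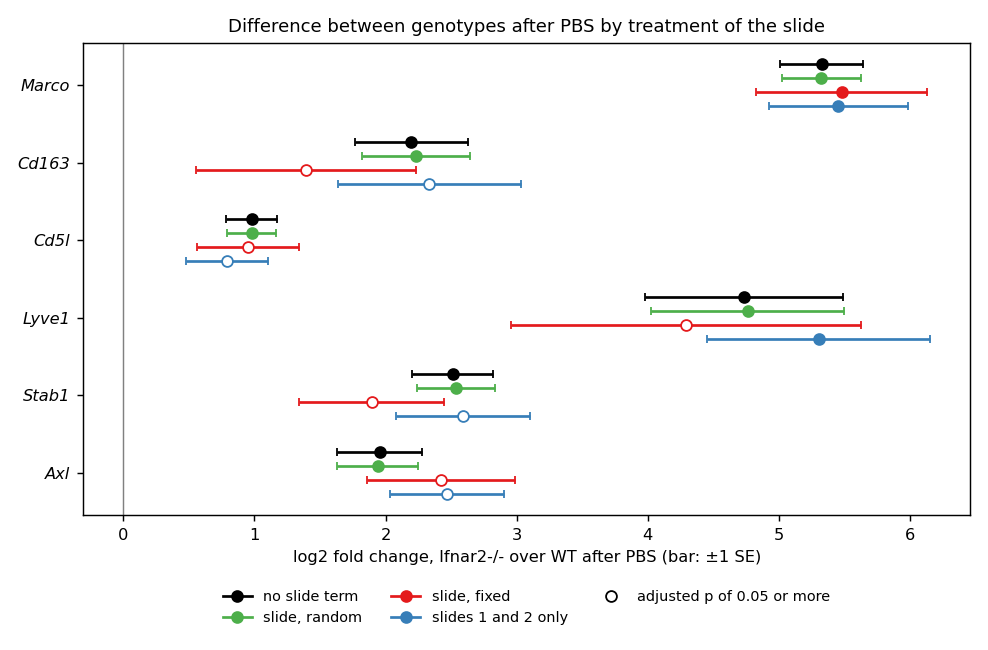
Log2 difference between Ifnar2-/- and WT mice after PBS (x axis) for the 6 members called, with 4 treatments of the slide, the bars being 1 standard error either side and open points an adjusted p of 0.05 or more. The Marco difference stays between 5.32 and 5.48 and is called in all 4, while Lyve1 ranges from 4.29 to 5.30 and is not called with slide as a fixed block.

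Cell type markers were read beside these differences. The 8 general macrophage markers were well above background on all arrays, and their summed linear level (multiples of the array's 75th percentile) was 508 to 638 in Ifnar2-/- PBS mice and 490 to 599 in WT PBS mice. The sum of the 11 measured markers of large peritoneal macrophages was 396 to 473 in Ifnar2-/- PBS mice and 357 to 528 in WT PBS mice, and that of 10 measured monocyte and small macrophage markers was 328 to 383 in Ifnar2-/- PBS mice and 254 to 314 in WT PBS mice. Of the 8 general macrophage markers 1 was called higher and 1 lower, and of the 11 of large peritoneal macrophages 2 higher and 1 lower. The 10 mast cell markers summed to 316 to 385 in Ifnar2-/- PBS mice and 227 to 304 in WT PBS mice, and 2 of them were called higher, Fcer1a by 1.48 and Kit by 0.87. The sums of the monocyte and mast cell lists did not overlap between the genotypes, and their part in the members' differences was not tested. Of the 10 monocyte and small macrophage markers, 1 was called higher and 1 lower, with a median log2 difference of -0.10. F13a1, which is on that list, averaged 5.59 in Ifnar2-/- PBS mice and 3.76 in WT PBS mice. Lyve1 and Stab1 are also made by lymphatic endothelium, of whose 5 measured markers only Prox1 was well above background in Ifnar2-/- mice. Pdpn and Mmrn1 were on none of the 12 arrays, and Flt4 and Reln on 1 WT IFN-β array each. The sum of these 5 was 0.138 to 0.149 in Ifnar2-/- PBS mice and 0.105 to 0.159 in WT PBS mice.

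After IFN-β, 5 members were higher and 3 were lower in Ifnar2-/- mice than in WT mice, and 2 did not pass the test, where 38.4% of all genes were called, 21.3% as higher and 17.2% as lower, and 38.8% of all probes. The median log2 difference of the members was 0.64 against 0.08 over all genes, and 9 of the 10 had values that did not overlap, as had 46.8% of all genes. Marco was at 5.87, 5.52 and 5.43 in Ifnar2-/- IFN-β mice and -0.45, -1.19 and 0.37 in WT IFN-β mice. Its processed signal was 49709, 43704 and 41710 in Ifnar2-/- IFN-β mice and 531, 327 and 855 in WT IFN-β mice. Both scales separate the genotypes fully, with a log2 difference of 6.03 (SE 0.32, adjusted p = 2.22e-07) and a fold of 65.2.

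Lyve1 was more variable after IFN-β. On probe A_52_P686785 it was at 2.70, 2.47 and -0.08 in Ifnar2-/- IFN-β mice and -4.54, -4.33 and -2.31 in WT IFN-β mice, a log2 difference of 5.42 (SE 0.76, adjusted p = 0.000272). The low Ifnar2-/- value belonged to mouse 3, which was also the lowest of its group on the dimmer Lyve1 probe and for Marco, Stab1, Cd163, Mertk and Axl. The same mouse was the highest of its group for Mrc1 (2.27) and Cd5l (6.47). In that mouse the summed level of 11 measured neutrophil markers was 200.04, the highest of the 12 arrays, and its part in these values was not tested. That sum was 113 in WT PBS mouse 1 and 82.9 in Ifnar2-/- IFN-β mouse 2, and 10.2 to 26.7 on the other arrays. Stab1 was at 5.55, 5.41 and 5.06 in Ifnar2-/- IFN-β mice and 1.76, 1.92 and 3.14 in WT IFN-β mice (log2 difference 3.07, SE 0.31, adjusted p = 2.86e-05). Cd163 was at 2.23, 2.68 and 1.89 in Ifnar2-/- IFN-β mice and -2.37, -2.44 and -0.58 in WT IFN-β mice (log2 difference 4.06, SE 0.43, adjusted p = 4.13e-05). WT IFN-β mouse 3 was the highest of its group for Marco, Lyve1, Stab1 and Cd163 alike. In that mouse 4 measured erythroid markers summed to 226, against 19.9 and 22.5 in the other WT IFN-β mice, and 5 lymphatic endothelium markers to 0.297, against 0.137 and 0.138. The part of these in its values was not tested. The erythroid sum was also 127 in Ifnar2-/- PBS mouse 3, against 8.46 and 4.58 in the other Ifnar2-/- PBS mice. Cd5l stood at 6.28, 6.37 and 6.47 in Ifnar2-/- IFN-β mice and 5.56, 5.42 and 5.47 in WT IFN-β mice, a log2 difference of 0.89 (SE 0.19, adjusted p = 0.00435). The Cd5l call ended with slide as a fixed block (0.79, adjusted p = 0.0636) and on slides 1 and 2 only (0.80, adjusted p = 0.112).

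Axl, Mertk and Msr1 lay on the other side, lower in Ifnar2-/- mice once IFN-β had been given. Axl was at -1.42, -1.75 and -2.06 in Ifnar2-/- IFN-β mice and 1.08, 0.62 and 1.44 in WT IFN-β mice, a log2 difference of -2.79 (SE 0.32, adjusted p = 7.33e-05). Its sign was thus opposite to that after PBS. Mertk was at 2.02, 2.28 and 1.36 in Ifnar2-/- IFN-β mice and 3.43, 3.16 and 3.67 in WT IFN-β mice (log2 difference -1.53, SE 0.28, adjusted p = 0.0017). Msr1 was at 4.67, 4.25 and 4.26 in Ifnar2-/- IFN-β mice and 5.08, 5.0 and 5.07 in WT IFN-β mice (log2 difference -0.66, SE 0.15, adjusted p = 0.0062), and its other probes gave -0.68 and -0.88. The Msr1 call was lost with quantile normalization (-0.35, adjusted p = 0.0625) and with no scaling (-0.28, adjusted p = 0.176), and also with slide as a fixed block (-0.53, adjusted p = 0.104) and on slides 1 and 2 only (-0.38, adjusted p = 0.212). Cd36 and Mrc1 did not pass, with log2 differences of 0.37 (adjusted p = 0.111) and 0.40 (adjusted p = 0.306), although the second Cd36 probe gave 0.56 (adjusted p over all probes 0.00714). Monocyte and small macrophage markers summed to 282 to 367 in Ifnar2-/- IFN-β mice and 512 to 586 in WT IFN-β mice. Of these 10, 2 were called higher and 6 lower. The large peritoneal macrophage, eosinophil, mesothelial and stromal, and blood endothelial sums were also lower, without overlap. Those of mast cells and of T and NK cells were higher, without overlap, and the others overlapped. The part of these sums in the members' differences was not tested.

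**Figure D3:**
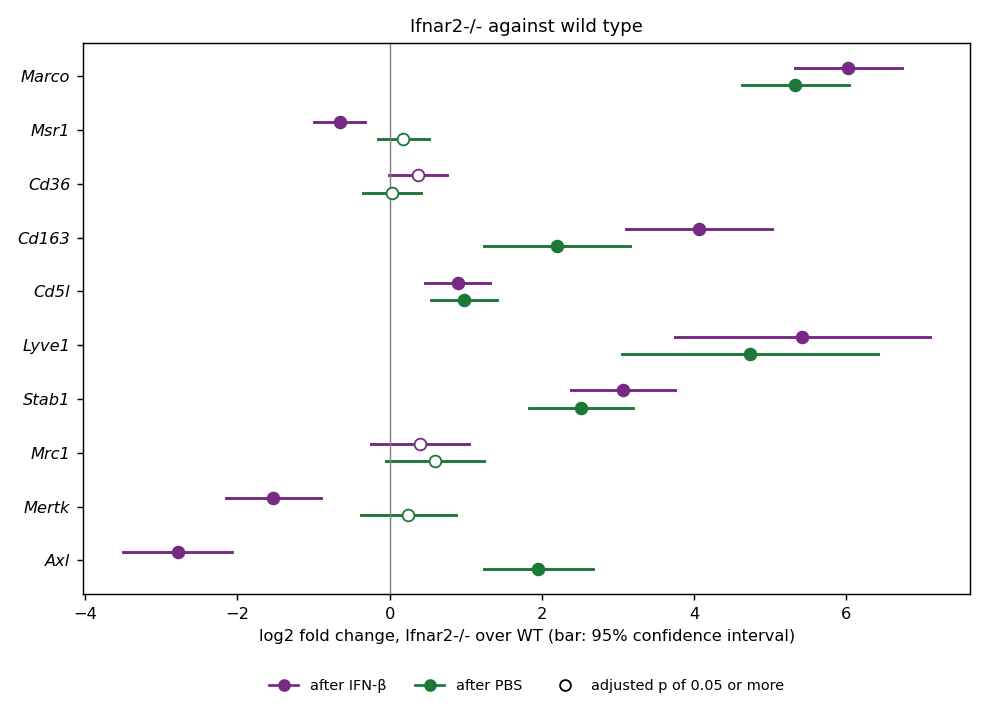
Log2 fold change of Ifnar2-/- over WT mice (x axis) for the 10 members (y axis), after IFN-β in purple and after PBS in green, with 95% confidence intervals and open points for an adjusted p of 0.05 or more. Marco, Cd163, Cd5l, Lyve1 and Stab1 are above 0 in both, while Axl is at -2.79 after IFN-β and 1.95 after PBS.

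In WT mice, IFN-β raised 3 members, lowered 1 and left 6 short of the threshold, where 39.4% of all genes were called, 17.6% as higher and 21.8% as lower, and 40% of all probes. The median log2 change of the members was 0.22 against -0.04 over all genes, and 4 members did not overlap between the treatments, as against 53.7% of all genes. The share of members called, 40%, was thus close to that of the array as a whole. Axl rose most, to levels of 1.08, 0.62 and 1.44 after IFN-β, against -2.92, -3.72 and -3.85 after PBS. This was a log2 change of 4.54 (SE 0.32, adjusted p = 2.36e-06) and a fold of 23.2 with a 95% interval of 14.2 to 38.1. With normexp background correction it was 3.70 (adjusted p = 1.88e-07). Mertk rose by 1.35 (SE 0.28, adjusted p = 0.00345), with 3.43, 3.16 and 3.67 after IFN-β and 2.06, 2.55 and 1.61 after PBS. Msr1 rose by 1.15 (SE 0.15, adjusted p = 0.000179), with 5.08, 5.0 and 5.07 after IFN-β and 3.76, 4.15 and 3.79 after PBS, and its other probes rose by 1.39 and 1.36. The Mertk call ended under a fixed slide block (1.36, adjusted p = 0.0558), while those of Axl, Msr1 and Cd163 held.

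Cell type markers moved with IFN-β in WT mice as well. The summed level of 10 measured monocyte and small macrophage markers was 512 to 586 in WT IFN-β mice and 254 to 314 in WT PBS mice, with 5 of the 10 called higher and 1 lower. That of the 8 general macrophage markers was 679 to 794 in WT IFN-β mice and 490 to 599 in WT PBS mice. Of these markers 1 was called higher, and their median log2 change was 0.11. This list holds Fcgr1, the rise of which is given with the alternatives below. The summed level of 10 T and NK cell markers was 4.57 to 4.86 in WT IFN-β mice and 6.92 to 8.07 in WT PBS mice, with 5 called lower. None of these 3 sums overlapped between the treatments, and their part in the changes of Axl, Mertk, Msr1 and Cd163 was not tested.

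Cd163 was the member that fell, to -2.37, -2.44 and -0.58 in WT IFN-β mice, against 0.31, -0.06 and -0.07 in WT PBS mice. Its log2 change was -1.86 (SE 0.43, adjusted p = 0.00617), and IFN-β mouse 3 lay nearest the PBS mice. Stab1 and Lyve1 had negative changes that did not pass, -0.67 (adjusted p = 0.114) and -1.01 (adjusted p = 0.329). In both the first 2 IFN-β mice lay below all PBS mice and mouse 3 did not. Without that mouse the Stab1 change was -1.10 (adjusted p = 0.00142). For Cd36 the change was -0.44 (adjusted p = 0.064) on the brighter probe and -0.62 (adjusted p over all probes 0.00391) on the other, and without WT PBS mouse 1 the brighter probe gave -0.62 (adjusted p = 0.0121). Marco had a change of 0.41 (95% interval -0.29 to 1.11, adjusted p = 0.344) with overlap, and without WT IFN-β mouse 2 it was 0.79 (adjusted p = 0.032). With each mouse left out in turn, the Marco change ran from 0.01 to 0.79. Cd5l (0.12, adjusted p = 0.665) and Mrc1 (0.31, adjusted p = 0.449) did not pass. Within slide 1, the single WT IFN-β mouse differed from the 3 WT PBS mice by 4.57 for Axl, 1.36 for Mertk, 1.18 for Msr1, -2.43 for Cd163, -1.83 for Lyve1 and -1.18 for Stab1.

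In Ifnar2-/- mice IFN-β moved 0 of the 10 members past the limma threshold, where 1.13% of all genes were called (0.925% higher, 0.208% lower) and 1.11% of all probes. By limma 1 member, Marco, had an unadjusted p under 0.05. The members' median change was -0.05, as was that over all genes. Marco was at 5.87, 5.52 and 5.43 after IFN-β and 4.62, 4.32 and 4.54 after PBS in these mice. All 3 IFN-β mice lay above all 3 PBS mice, with a log2 change of 1.11 (SE 0.32, 95% interval 0.41 to 1.81, adjusted p = 0.117). Within slide 2 the change was 1.25 and within slide 3 it was 1.04. Msr1 was the only other member whose treatments did not overlap, as was true of 23.4% of all genes, and its change was 0.32 (adjusted p = 0.299). For the other 8 members the changes ran from -0.42 for Mertk to 0.10 for Mrc1. Axl, which had the highest rise of the members in WT mice, changed by -0.20 (95% interval -0.91 to 0.51, adjusted p = 0.78).

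**Figure D4:**
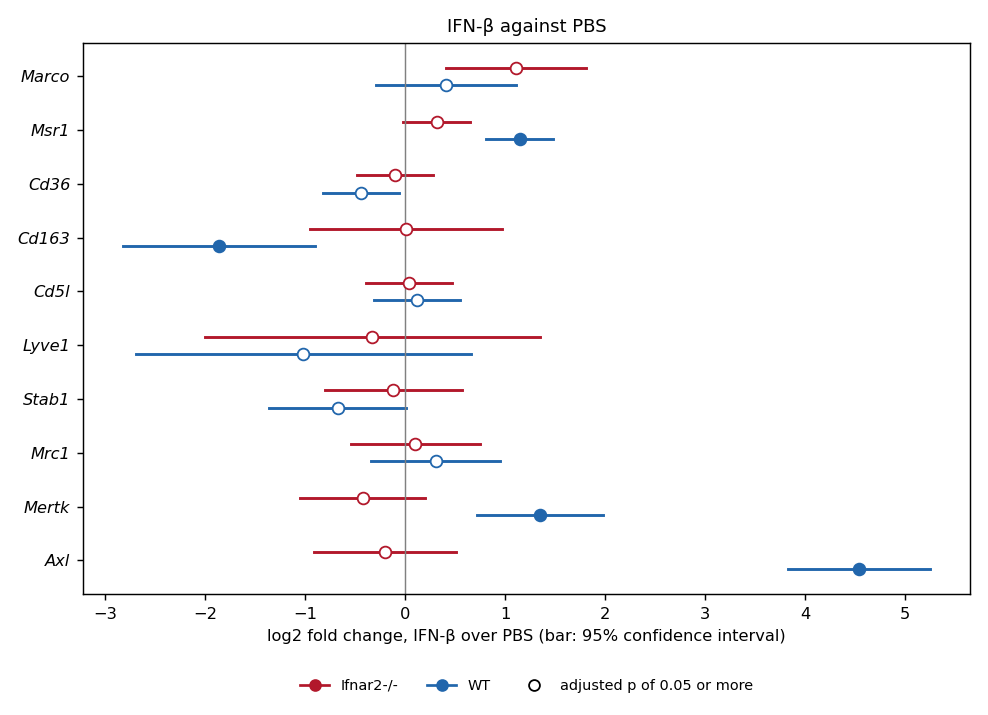
Log2 fold change of IFN-β over PBS (x axis) for the 10 members (y axis), in Ifnar2-/- mice in red and in WT mice in blue, with 95% confidence intervals and open points for an adjusted p of 0.05 or more. Axl is at -0.20 in Ifnar2-/- mice and 4.54 in WT mice, and Marco is at 1.11 in Ifnar2-/- mice and 0.41 in WT mice, neither past the threshold.

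The response itself differed between the genotypes for 3 members, each lower in Ifnar2-/- mice, where the same test called 17.8% of all genes, 8.68% as higher and 9.09% as lower, and 17.7% of all probes. The difference of the responses, Ifnar2-/- minus WT, was -4.74 for Axl (SE 0.45, adjusted p = 5.75e-05), -1.77 for Mertk (SE 0.40, adjusted p = 0.0119) and -0.83 for Msr1 (SE 0.21, adjusted p = 0.022). The Msr1 value did not pass with quantile normalization (-0.48, adjusted p = 0.11) or without scaling (-0.55, adjusted p = 0.116), though its other probes gave -1.11 and -1.08 (adjusted p over all probes 0.00827 and 0.00689). Under a fixed slide block the calls of Mertk (-1.78, adjusted p = 0.0746) and Msr1 (-0.86, adjusted p = 0.0858) ended, as they did on slides 1 and 2 only (-1.58, adjusted p = 0.132, and -0.50, adjusted p = 0.352), and that of Axl did not. The Msr1 call also ended without Ifnar2-/- IFN-β mouse 2, Ifnar2-/- PBS mouse 3, WT IFN-β mouse 1 or WT PBS mouse 1 or 3 (adjusted p 0.051 to 0.0564). For Cd163 the difference was 1.87 (SE 0.61, adjusted p = 0.0607). Leaving out WT IFN-β mouse 3 gave 2.47 for Cd163 (adjusted p = 0.00111), 0.99 for Stab1 (0.0238) and 1.10 for Marco (0.0436). Over all 12 mice, Marco stood at 0.70 (95% interval -0.29 to 1.69, adjusted p = 0.343) and Lyve1 at 0.69 (95% interval -1.68 to 3.06, adjusted p = 0.743). With all mice, the genotype gap of these receptors was therefore not shown to differ between the treatments.

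The order of the group means ran, for Marco, Ifnar2-/- IFN-β 5.61 ± 0.24, Ifnar2-/- PBS 4.49 ± 0.15, WT IFN-β -0.42 ± 0.78 and WT PBS -0.83 ± 0.20 (SD, n = 3 each). The treatments were neighbours within each genotype, and neither pair passed the threshold, although the Ifnar2-/- treatments did not overlap, while all 6 Ifnar2-/- mice lay above all 6 WT mice. For Lyve1 the order was Ifnar2-/- PBS 2.02 ± 0.53, Ifnar2-/- IFN-β 1.70 ± 1.54, WT PBS -2.71 ± 0.46 and WT IFN-β -3.73 ± 1.23 (SD, n = 3 each), where the treatments did not pass the test within either genotype and the genotypes did not overlap. For Axl the order was WT IFN-β 1.04 ± 0.41, Ifnar2-/- PBS -1.54 ± 0.47, Ifnar2-/- IFN-β -1.74 ± 0.32 and WT PBS -3.50 ± 0.51 (SD, n = 3 each), with the Ifnar2-/- groups as overlapping neighbours.

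**Figure D5:**
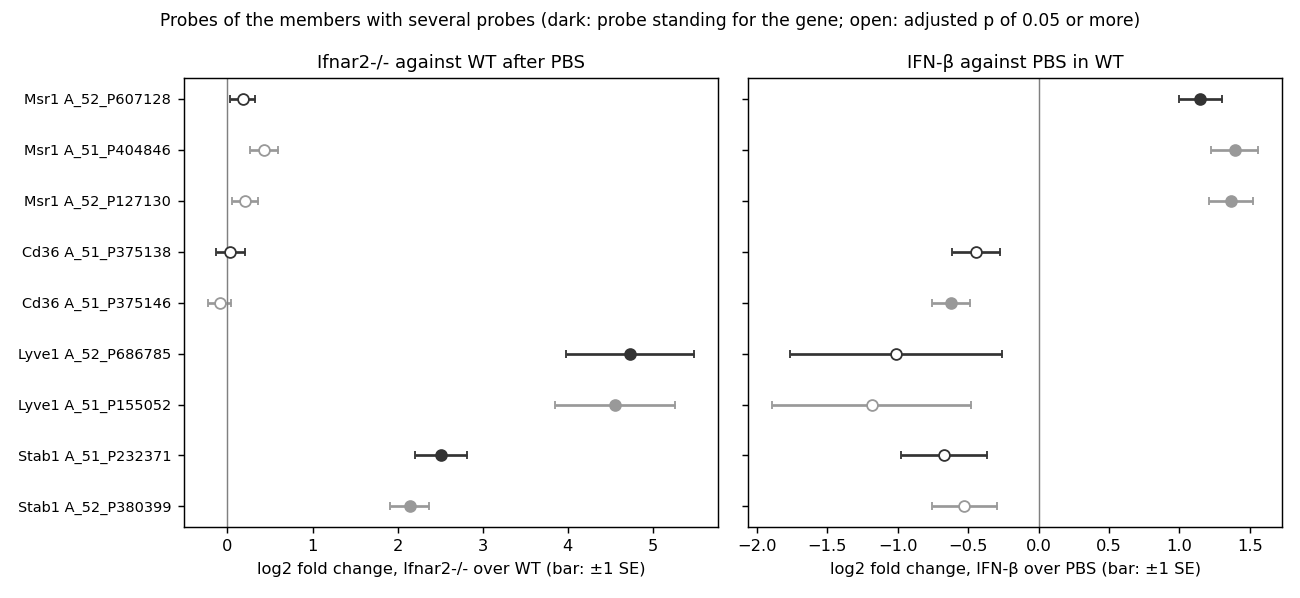
Log2 fold change (x axes, bars 1 standard error either side) on each probe of the 4 members with several probes (y axis), for Ifnar2-/- over WT after PBS on the left and IFN-β over PBS in WT on the right. The pair of Lyve1 probes gives 4.73 and 4.56 on the left, and the Msr1 probes give 1.15, 1.39 and 1.36 on the right, while 1 of the 2 Cd36 probes is called on the right.

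Some members had similar patterns across the 12 arrays. Stab1 correlated with Lyve1 at a Pearson r of 0.98, with Cd163 at 0.97 and with Marco at 0.95, and Axl with Msr1 at 0.87 and with Mertk at 0.79. The highest r of Cd36 with any other member was 0.61 and that of Mrc1 was 0.59, while Cd36 and Axl had an r of -0.71. These are descriptions over 12 arrays of 4 groups that share scaling and slides. Among 15281 genes well above background on every array, those most like Marco were the unnamed transcript NM_001004175 (r = 0.99), Fcna (0.99), Qsox1 (0.98), Rprd1b (0.98) and Klk1b5 (0.98). Fcna encodes a ficolin, a secreted lectin of the complement system, and stood at 6.51 in Ifnar2-/- IFN-β, 6.53 in Ifnar2-/- PBS, 4.13 in WT IFN-β and 4.05 in WT PBS mice on average. Those most like Lyve1 were F13a1 (0.98), Stab1 (0.98), Dzip1 (0.98) and the sequences TC1463322 (0.98) and NAP122883-1 (0.98), which the array lists without a gene name. F13a1, the A subunit of coagulation factor XIII, averaged 5.40 in Ifnar2-/- IFN-β, 5.59 in Ifnar2-/- PBS, 3.24 in WT IFN-β and 3.76 in WT PBS mice. For all 10 of these genes the lowest Ifnar2-/- array was above the highest WT array. That follows largely from their choice by likeness to Marco and Lyve1, which themselves separate the genotypes.

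Of a list of 16 other scavenger receptors, 13 could be tested, and after PBS limma called 0 higher (3 at an unadjusted p under 0.05) and 2 lower in Ifnar2-/- mice, Scarb2 by -0.99 (adjusted p = 0.0244) and Megf10 by -3.07 (adjusted p = 0.0064). The list's median difference was 0.07. Scarb2 is a lysosomal membrane receptor and Megf10 an engulfment receptor. After IFN-β, 1 was called higher and 2 lower in Ifnar2-/- mice, Cd68 at 0.65, Scarf1 at -0.75 and Scarb2 at -1.28. In WT mice IFN-β raised Scarf1 by 2.07 and Olr1, the receptor for oxidised lipoprotein, by 1.71, and changed Megf10 by -2.12. In Ifnar2-/- mice Olr1 alone was called, with a change of 2.86 (adjusted p = 0.0314). The responses differed for Megf10 by 2.71 and for Scarf1 by -1.65 (Ifnar2-/- minus WT). With normexp background correction the Megf10 difference after PBS was -0.73 (adjusted p = 0.0343), and Megf10 lost its change in WT mice (-0.33, adjusted p = 0.166) and its difference of responses (0.31, adjusted p = 0.472), and without scaling Scarf1 lost its call between genotypes (-0.37, adjusted p = 0.164).

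Among 18 genes of apoptotic cell clearance, 1 was higher and 2 were lower in Ifnar2-/- mice after PBS. Gas6, the ligand of Axl and Mertk, was at 2.37 (adjusted p = 0.0368), Itgb3 at -1.92 (0.0375) and Thbs1 at -3.47 (0.0277), on a list median of 0.28. After IFN-β, 5 were higher, led by Gas6 (2.22), Abca1 (1.88) and Itgb5 (1.69), and 5 lower, led by Thbs1 (-3.06), Itgb3 (-1.53) and the phosphatidylserine receptor Timd4 (-1.07). IFN-β in WT mice raised 1, Timd4 by 1.41, and lowered 3, Itgb3 (-1.79), Tyro3 (-1.15) and Itgav (-0.57). In Ifnar2-/- mice limma called 0 of the 18, of which 3 had an unadjusted p under 0.05. Tyro3, the third kinase of the Axl and Mertk family, had a response that differed by 2.01 (adjusted p = 0.013), the opposite sign to Axl and Mertk, and Itgav differed by 0.90 (adjusted p = 0.0214). With normexp background correction the Tyro3 values were 0.21 for the difference of responses (adjusted p = 0.534) and -0.03 for IFN-β in WT mice (adjusted p = 0.898). Timd4 lost its call between genotypes without scaling (-0.69, adjusted p = 0.0609).

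Of 13 transcription factors linked to macrophage and scavenger receptor genes, 2 were called higher in Ifnar2-/- mice after PBS. Maf was among them, by 1.33 (adjusted p = 0.000631). Limma called 0 lower (1 at an unadjusted p under 0.05). After IFN-β, 5 were higher, led by Pparg (1.63), Nr1h3 (1.17) and Rxra (1.03), and 2 lower, Maf (-1.79) and Nr3c1 (-0.78). IFN-β raised 6 in WT mice, led by Maf (2.66), Nr3c1 (0.83) and Nfe2l2 (0.75), and lowered 2, Gata6 (-1.18) and Rxra (-0.77). In Ifnar2-/- mice it raised 2, Nr1h3 (1.56) and Nfe2l2 (0.62). The response of Maf differed by -3.12 (adjusted p = 4.64e-06) and that of Nr3c1 by -0.90, while that of Gata6, the factor of large peritoneal macrophages, differed by 1.41. Nr3c1 lost its calls after IFN-β and in the difference of responses without scaling (-0.40, adjusted p = 0.0689, and -0.62, adjusted p = 0.0879). Like Axl, Maf was higher in Ifnar2-/- mice after PBS and lower after IFN-β.

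Promoter windows of RefSeq on build GRCm38.p6, from 250 bases before to 50 after a start site, were found for 8 members, all but Msr1 and Lyve1. The interferon-stimulated response element, searched as GAAA, any 2 bases and GAAA on both strands, matched 0 of the 8 windows and 3.44% of all 32851. The gamma-activated site, searched as TTC, any 3 bases and GAA on both strands, matched 0 of the 8 and 8.3% of all. The window of Axl, the member with the highest rise in WT mice, is shown for that reason, and lies at chr7:25788684-25788983 on the minus strand.
Axl promoter: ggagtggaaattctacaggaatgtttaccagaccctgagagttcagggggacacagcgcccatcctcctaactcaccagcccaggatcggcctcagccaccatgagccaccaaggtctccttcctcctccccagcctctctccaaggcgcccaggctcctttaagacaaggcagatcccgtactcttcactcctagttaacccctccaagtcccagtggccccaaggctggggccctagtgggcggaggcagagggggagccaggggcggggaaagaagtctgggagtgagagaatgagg
That neither motif matched says only that these letters are not in the windows searched.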

How the data were processed

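Expression was measured in 12 single-colour Agilent arrays, 3 per group. The intensity of each spot (processed signal) was made by the authors with Agilent Feature Extraction 9.5.3.1, per the file headers and the submitters' processing notes, with spatial and multiplicative detrending on and surrogate values for dim spots, per the file headers. The deposited value table held the same intensities in every cell and was used only for that comparison. From the deposited intensity, outlier-flagged spots were left out, spots of a probe averaged, and the log2 signal minus that of the array's 75th percentile taken. Probes were kept if at least 1 group had them well above background throughout and if 6 or more arrays gave a value, and the probe with the highest mean stood for a gene. Probes were named by accession (22951), current symbol (6659), older symbol (3109) or the file's own name (8455) with a RefSeq table of GRCm38.p6, used for names only. Group means were fitted with limma 3.58.1 in R 4.3.3, with p-values two-sided and adjusted by Benjamini-Hochberg over all genes, or all probes for single probes. The script was tested on simulated data. All 10 members are named, and from each other list at most the 3 largest rises and 3 largest falls past the threshold, together with the 5 genes most like Marco and Lyve1 by Pearson r. The members and lists were chosen with earlier results of these data known. Replicate numbers were not treated as pairs: deviations of same-numbered arrays from their group means correlated at -0.12 to 0.51. Replicates correlated at 0.974 to 0.993, and 3 arrays per group limit the precision. Alternatives were another normalization, background correction, filter and probe summary, slide or replicate blocks, subsets of arrays, and, chosen after seeing the data, scaling on 8 macrophage markers.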

Additional observations from a re-analysis of the deposited data

Results flagged for a closer look

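The response to IFN-β differed between Ifnar2-/- and WT mice, by the test of the difference itself, for 3 members and for 3 further probes of the members. For Axl the difference (Ifnar2-/- minus WT, log2) was -4.74 (adjusted p = 5.75e-05), with changes of -0.20 in Ifnar2-/- mice and 4.54 in WT mice. For Mertk it was -1.77 (adjusted p = 0.0119), with -0.42 in Ifnar2-/- mice and 1.35 in WT mice. For Msr1 it was -0.83 (adjusted p = 0.022), with 0.32 in Ifnar2-/- mice and 1.15 in WT mice, and on its probes A_51_P404846 and A_52_P127130 it was -1.11 (adjusted p over all probes 0.00827) and -1.08 (0.00689). On the Cd36 probe A_51_P375146 it was 0.66 (adjusted p over all probes 0.0366), with 0.03 in Ifnar2-/- mice and -0.62 in WT mice, while the brighter Cd36 probe gave 0.34 (0.398). Dixon's outlier test was not applied, since each group holds 3 mice.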

How the results depend on the processing

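Over the members' differences in the 5 comparisons and all alternatives, 1215 values kept their side of the threshold. These kept their direction or, where uncalled, changed sign within a margin set from the standard error. A further 39 values dropped below the threshold and 29 moved above it. Another 6 uncalled values changed sign by more than that margin, and 1 uncalled value changed sign and was called. Marco after PBS kept its call in every alternative. Lyve1 after PBS lost it in 1, with slide as a fixed block (4.29, adjusted p = 0.512). Members called higher after PBS numbered 6 in the report, 1 with slide as a fixed block and 2 on slides 1 and 2 only. Members called lower by IFN-β in WT mice numbered 1 in the report, 3 with quantile normalization and with no scaling, 2 with normexp background correction, with the mean of a gene's probes, with an intensity trend and with the replicate block, and 5 with scaling on 8 macrophage markers. Members with a higher response in Ifnar2-/- mice numbered 0 in the report, 1 with no scaling, normexp, an intensity trend or only probes well above background on all 12 arrays, and 2 with the macrophage scaling. Members with a lower response numbered 3 in the report and 1 with slide as a fixed block or on slides 1 and 2 only. Leaving out 1 mouse at a time gave 5.22 to 5.41 for Marco and 4.45 to 4.97 for Lyve1 after PBS, 4 to 6 members higher after PBS, 3 to 4 higher and 1 to 2 lower by IFN-β in WT mice, and 0 to 3 higher and 2 to 3 lower in the difference of responses. The uncalled value that changed sign and was called was Cd5l in WT mice under the macrophage scaling (-0.68, adjusted p = 0.00326). That set holds Fcgr1, which rose by 5.71 in WT mice, and it moved the median of all genes there to -0.85, against -0.04 in the report. Without scaling the median was -0.21 in WT mice and 0.46 between genotypes after IFN-β, against 0.08 in the report. Of all genes called in WT mice, 44.6% were higher in the report, 30.6% without scaling and 8.0% with the macrophage scaling, and of those called between genotypes after IFN-β, 55.3%, 80.8% and 84.9%. Apart from Cd36 in WT mice (-0.44, adjusted p = 0.0449), the replicate block, on numbers not shown to pair the mice, added or ended no call of a member, and 5 of 12 arrays correlated best with their own number. Of 52 calls of the other lists, 48 held with quantile normalization, 43 without scaling, 46 with normexp and 38 with the macrophage scaling, where 4 transcription factors changed sign in WT mice (Nfe2l2 -0.06, Nr1h3 -0.12, Spi1 -0.19 and Zeb2 -0.28, none called). The cause of these shifts was not tested. Signal over background limits the dimmer Lyve1 probe, on which 2 WT IFN-β arrays were not well above background.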
